A study of Mus musculus with 8 samples.

Results

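The 8 genes described here are a working set of club cell genes, namely Scgb1a1, Scgb3a1, Scgb3a2, Cyp2f2, Cbr2, Aldh1a1, Bpifa1 and Bpifb1. They were chosen by gene symbol, with no measured value in the rule, from the 54532 genes of the count table, and all 8 were among the 17138 genes with enough counts to test. RNA was sequenced from whole lungs of CC-LR mice, in which Cre recombinase expressed from the club cell secretory protein (CCSP) locus turns on an LSL-K-ras G12D allele in the lung epithelium, so that lung tumors form spontaneously. CCSP is the protein of Scgb1a1, so the Cre driver sits at the locus of a gene measured here, and both groups carry it. How many intact Scgb1a1 copies the driver allele leaves is not given in the sources used here. The Control group had 4 mice, and another 4 received TTI-101, a small-molecule STAT3 inhibitor, for 4 weeks, all with lungs taken at 14 weeks of age and 1 library per mouse. The route of TTI-101 and what Control mice received are not named for these 8 mice.

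Club cells are the main secretory cells of the mouse bronchioles. They release secretoglobins and antimicrobial proteins into the airway lining, break down inhaled chemicals with cytochrome P450 and other oxidoreductases, and can renew themselves and give rise to ciliated cells. In CC-LR lungs the tumor-starting mutation is switched on by a club cell promoter. In RNA from whole lung, fewer club cells and less RNA per club cell cannot be told apart.

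Total counts per library were highest in Control mouse 1 (26873509) and TTI-101 mouse 1 (25920509). In the other libraries they ranged from 16075855 to 18220467. Control mouse 4 stood apart from the other 7 mice on the first principal component of log2 CPM, which held 45.2% of the variance, and 5.56% of its counts came from mitochondrial genes against 2.01% to 2.85% in the others. Alveolar type 2 markers, which define lung tissue, summed to 32730 to 73790 CPM in every library. The 10 cartilage markers, which come with the large airways, summed to 142 counts in TTI-101 mouse 1 and 85 in TTI-101 mouse 2, against 21 to 42 counts in the other 6 libraries. Levels are in CPM, which sets the counts of a gene against the total of its library as scaled by TMM. Differences between groups are log2 fold changes of TTI-101 over Control from edgeR's quasi-likelihood test, with the p adjusted over all 17138 genes by Benjamini-Hochberg.

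Promoter sequences of 300 bases, from 250 bases before to 50 bases after the start of transcription, were available from RefSeq (GRCm38.p6) for 6 of the 8 genes, Scgb3a1, Cyp2f2, Cbr2, Aldh1a1, Bpifa1 and Bpifb1. Those of 5 genes are shown because these genes fell into 2 patterns across the mice, with Cyp2f2 and Cbr2 in the first and Scgb3a1, Bpifa1 and Bpifb1 in the second. The patterns were seen in the values and not tested as sets. Correlations of Scgb1a1 with the second were higher without Control mice 3 and 4. Each sequence is written 5′ to 3′ on the strand of its gene. Capitals mark matches, on either strand, to 4 motifs: TTCNNNGAA for STAT factors such as STAT3, TGTTTNC for FOXA factors, CAAGTG for NKX2-1, and TTGNGNAA for C/EBP factors. The windows are chr7:27119705-27120004 (plus strand) for Cyp2f2, chr11:120731972-120732271 (minus strand) for Cbr2, chr11:49663345-49663644 (plus strand) for Scgb3a1, chr2:154142630-154142929 (plus strand) for Bpifa1 and chr2:154190568-154190867 (plus strand) for the first start of Bpifb1.
Cyp2f2: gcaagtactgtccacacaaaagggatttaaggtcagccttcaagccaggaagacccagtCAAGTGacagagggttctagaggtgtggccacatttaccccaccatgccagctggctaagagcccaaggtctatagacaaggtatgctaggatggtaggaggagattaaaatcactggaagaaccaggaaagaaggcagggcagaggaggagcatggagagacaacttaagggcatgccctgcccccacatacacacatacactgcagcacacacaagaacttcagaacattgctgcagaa
Cbr2: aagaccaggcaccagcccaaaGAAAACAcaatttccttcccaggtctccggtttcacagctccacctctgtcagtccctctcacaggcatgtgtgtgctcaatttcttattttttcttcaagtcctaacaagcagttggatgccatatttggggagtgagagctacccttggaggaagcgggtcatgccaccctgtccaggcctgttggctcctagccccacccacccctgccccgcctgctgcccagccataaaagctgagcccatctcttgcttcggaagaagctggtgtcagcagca
Scgb3a1: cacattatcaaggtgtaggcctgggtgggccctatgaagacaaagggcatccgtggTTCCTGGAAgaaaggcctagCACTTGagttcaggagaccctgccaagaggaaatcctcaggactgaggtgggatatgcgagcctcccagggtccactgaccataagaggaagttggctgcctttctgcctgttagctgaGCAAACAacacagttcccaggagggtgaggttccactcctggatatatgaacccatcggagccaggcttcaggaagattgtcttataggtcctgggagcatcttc
Bpifa1: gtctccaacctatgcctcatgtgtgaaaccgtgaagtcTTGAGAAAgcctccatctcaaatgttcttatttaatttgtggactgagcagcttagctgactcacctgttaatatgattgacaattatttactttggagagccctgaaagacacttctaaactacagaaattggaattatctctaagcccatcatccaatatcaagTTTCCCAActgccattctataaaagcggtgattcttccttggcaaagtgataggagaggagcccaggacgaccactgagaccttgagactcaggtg
Bpifb1: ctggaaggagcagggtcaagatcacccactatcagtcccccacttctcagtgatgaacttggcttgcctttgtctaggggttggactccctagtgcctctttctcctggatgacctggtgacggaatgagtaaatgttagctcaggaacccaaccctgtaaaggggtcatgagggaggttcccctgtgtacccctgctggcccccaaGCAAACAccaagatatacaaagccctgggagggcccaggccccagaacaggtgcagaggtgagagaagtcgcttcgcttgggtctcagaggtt

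Positions are those of the first base of a match, in bases from the start of transcription, with negative values upstream. In these windows Cyp2f2 held an NKX2-1 match at -191, and Cbr2 held a FOXA match at -229. Scgb3a1 held matches to 3 motifs, STAT at -194, NKX2-1 at -174 and FOXA at -55. Bpifa1 held 2 C/EBP matches, at -212 and -46, and Bpifb1 a FOXA match at -43 from its first start. The window of the second start of Bpifb1, not shown, held a STAT match at -146. The windows of Aldh1a1, also not shown, held a C/EBP match at -151 from its first start and an NKX2-1 match at -115 from its second. Of 32851 promoters of the same length, 8.30% held the STAT letters, 20.5% the FOXA letters, 13.6% the NKX2-1 letters and 13.3% the C/EBP letters. The STAT letters read the same on both strands, and no match overlapped that of another motif in the printed windows.

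Compared per kilobase of transcript over all 8 libraries, Scgb1a1 was the most abundant of the set, with a mean level of 38030 CPM per kb, and ranked 1 of the 17138 genes tested. Cbr2 followed at 3388 CPM per kb and was below Scgb1a1 in 8 of 8 libraries. Next came Cyp2f2 at 1444, Scgb3a2 at 1234, Scgb3a1 at 702, Bpifa1 at 611, Aldh1a1 at 203 and Bpifb1 at 49.97 CPM per kb. Neighbours in this order kept it in every library only for Scgb1a1 over Cbr2, Cbr2 over Cyp2f2 and Scgb3a1 over Bpifa1. Cyp2f2 lay above Scgb3a2, Scgb3a2 above Scgb3a1 and Aldh1a1 above Bpifb1 in 7 of 8 libraries, and Bpifa1 lay above Aldh1a1 in 6 of 8.

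Between groups, Scgb1a1, Cbr2, Scgb3a2, Cyp2f2 and Aldh1a1 had lower fitted levels in TTI-101 lungs, and Scgb3a1, Bpifa1 and Bpifb1 higher ones. At an unadjusted p of 0.05, 2 of the 8 passed, Scgb1a1 and Cbr2, both lower. Over all genes tested, 6.61% passed this threshold and 3.58% passed it with a lower level in TTI-101 lungs. At an adjusted p of 0.05, 0 of the 8 and 0 of the 17138 genes (0%) passed in edgeR, which called 1132 genes at an unadjusted p of 0.05. DESeq2 called 4 genes at its adjusted p of 0.05 (0.0126% of those with an adjusted p), and limma-voom called 0 (0%). In 0 of the 8 genes did the groups fail to overlap, against 2.96% of all genes tested. The median log2 fold change of the 8 was -0.39, beside 0.0034 over all genes tested.

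**Figure D1:**
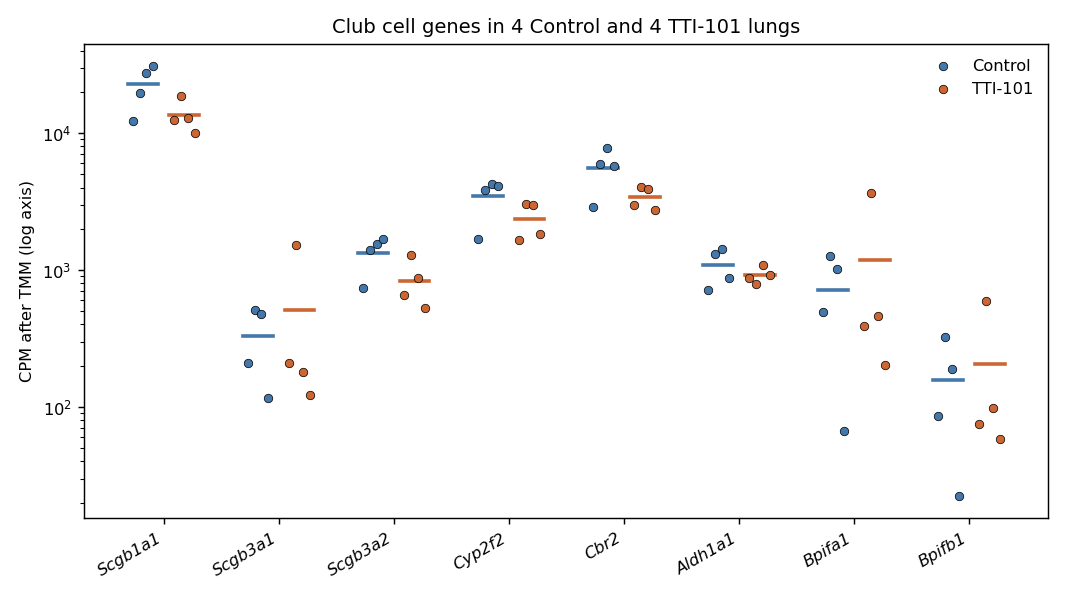
Level of each club cell gene in CPM after TMM scaling (log axis) for each of 4 Control (blue) and 4 TTI-101 (orange) lungs, with points in order of mouse number and bars at the arithmetic mean of each group. Groups overlap for every gene, and TTI-101 mouse 2 lies far above the other TTI-101 mice for Scgb3a1, Bpifa1 and Bpifb1.

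Among the secretoglobins, small secreted proteins of the airway lining, Scgb1a1 (ENSMUSG00000024653, chromosome 19 of GRCm38, 9083636 to 9087958, minus strand) encodes the club cell secretory protein itself. Its level was 12220, 19730, 27620 and 31150 CPM in Control mice 1 to 4 and 12480, 18700, 12910 and 10010 CPM in TTI-101 mice 1 to 4. Control mice 2, 3 and 4 lay above all 4 TTI-101 mice, whereas Control mouse 1 lay among them. Control mice averaged 22680 ± 8451 CPM (SD, n = 4) against 13530 ± 3678 CPM (SD, n = 4) with TTI-101. Scgb1a1 had a log2 fold change of -0.75 ± 0.33 (standard error), and edgeR gave an unadjusted p of 0.045 and an adjusted p of 0.657. A two-sided exact permutation test of log2 CPM over 70 assignments gave p = 0.143, where 4 against 4 mice allow no p below 0.0286. Scgb1a1 kept an unadjusted p under the threshold when Control mouse 1 or TTI-101 mouse 2 was left out. Leaving out Control mouse 2, 3 or 4 or TTI-101 mouse 1, 3 or 4 gave unadjusted p from 0.0519 to 0.121 in edgeR. Without Control mouse 4, which had the highest level, the change was -0.55 on the log2 scale.

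Scgb3a2 (ENSMUSG00000038791, chromosome 18) encodes a secretoglobin made mainly by club cells. Its level was 739.7, 1390, 1537 and 1683 CPM in Control mice 1 to 4 and 653.9, 1278, 878 and 531 CPM in TTI-101 mice 1 to 4. Again Control mice 2, 3 and 4 lay above all TTI-101 mice, and Control mouse 1 lay among them. Scgb3a2 had a log2 fold change of -0.68 ± 0.32 (standard error), just outside the unadjusted threshold (edgeR p = 0.0582, adjusted p = 0.657; two-sided exact permutation test, p = 0.114). It passed that threshold with DESeq2 (unadjusted p = 0.0321), limma-voom (0.0495) and edgeR without a filter (0.0363), and when Control mouse 1 (0.012) or TTI-101 mouse 2 (0.00996) was left out.

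Scgb3a1 (ENSMUSG00000064057, chromosome 11, 49663610 to 49665118, plus strand) encodes a secretoglobin of the larger airways. Its level was 209, 513, 477 and 116 CPM in Control mice 1 to 4 and 208, 1533, 181 and 123 CPM in TTI-101 mice 1 to 4. TTI-101 mouse 2 was above every other mouse, and the other 3 TTI-101 mice lay within the Control range. Its fitted log2 fold change of 0.64 ± 0.78 (standard error; edgeR adjusted p = 0.810) became -0.93 without TTI-101 mouse 2 (unadjusted p = 0.0689), so 1 library set its direction. In limma-voom it was 0.07. The difference of mean log2 CPM, which weights mice equally on the log scale, was 0.06 (two-sided exact permutation test, p = 0.943). Of 66 other secretoglobin genes in the table, 3 had any count and 1 could be tested, Scgb1c1, with a log2 fold change of -0.76 (unadjusted p = 0.023, adjusted p = 0.657 from edgeR).

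Among the enzymes, Cbr2 (ENSMUSG00000025150, chromosome 11, 120729489 to 120732114, minus strand) encodes a lung carbonyl reductase. Its level was 2866, 5976, 7759 and 5742 CPM in Control mice 1 to 4 and 2998, 4026, 3879 and 2722 CPM in TTI-101 mice 1 to 4. Control mouse 1 lay among the TTI-101 mice, and the other 3 Control mice lay above all of them. Cbr2 had a log2 fold change of -0.71 ± 0.30 (standard error; edgeR unadjusted p = 0.0356, adjusted p = 0.657; exact permutation p = 0.114). Leaving out Control mouse 2 or 3 or TTI-101 mouse 1 or 4 raised the unadjusted edgeR p to between 0.0686 and 0.123, and without Control mouse 3, the highest, the change was -0.51 on the log2 scale.

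Cyp2f2 (ENSMUSG00000052974, chromosome 7, 27119909 to 27133660, plus strand) encodes the cytochrome P450 that makes mouse club cells sensitive to naphthalene. Its level was 1696, 3844, 4252 and 4126 CPM in Control mice 1 to 4 and 1643, 3037, 2960 and 1835 CPM in TTI-101 mice 1 to 4. The pattern was that of Scgb1a1, with Control mouse 1 near the lowest TTI-101 mouse and the other Control mice above all TTI-101 mice. Cyp2f2 had a log2 fold change of -0.55 ± 0.32 (standard error; edgeR adjusted p = 0.657; two-sided exact permutation test, p = 0.2). It passed the unadjusted threshold without Control mouse 1 (log2 fold change -0.78, edgeR unadjusted p = 0.0137).

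Aldh1a1 (ENSMUSG00000053279, chromosome 19, 20492715 to 20643462, plus strand) encodes a retinaldehyde dehydrogenase. Its level was 714.8, 1298, 1423 and 880.2 CPM in Control mice 1 to 4 and 879.7, 792, 1091 and 920.0 CPM in TTI-101 mice 1 to 4, so all TTI-101 mice lay inside the Control range. Aldh1a1 had a log2 fold change of -0.23 ± 0.24 (standard error; edgeR adjusted p = 0.774). It went from -0.07 without Control mouse 3 and -0.12 without Control mouse 2 to -0.38 without Control mouse 1. Its relative Aldh1a7, whose closely similar transcript could share reads with it in the counting, was at 123, 175, 199 and 255 CPM in Control and 117, 114, 116 and 106 CPM in TTI-101 mice. All 4 TTI-101 mice lay below all Control mice for Aldh1a7, where groups failed to overlap in 2.96% of all genes tested. Aldh1a7 had a log2 fold change of -0.73 ± 0.20 (standard error, with edgeR unadjusted p = 0.00413 and adjusted p = 0.657). It was the only gene of 9 relatives of Aldh1a1 and Cbr2 to pass the unadjusted threshold, which 6.61% of all genes passed. This list held no relative of Cyp2f2. Of the 9, 6 were lower and 3 higher.

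Bpifa1 and Bpifb1 encode secreted proteins of the BPI fold family, which act in airway defence, and lie near each other on chromosome 2 (ENSMUSG00000027483, 154142880 to 154149219; ENSMUSG00000027485, 154190818 to 154220369; both plus strand). Bpifa1 was at 492, 1257, 1019 and 66.3 CPM in Control mice 1 to 4 and 390, 3667, 458 and 202 CPM in TTI-101 mice 1 to 4. Bpifb1 was at 85.9, 326, 191 and 22.2 CPM in Control mice 1 to 4 and 75.4, 590, 97.4 and 58.1 CPM in TTI-101 mice 1 to 4. For both, TTI-101 mouse 2 was the highest and Control mouse 4 the lowest of all 8 mice. The highest library was 55.3 times the lowest for Bpifa1, 26.6 times for Bpifb1 and 13.2 times for Scgb3a1, against at most 3.2 times for the other 5 genes.

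The log2 fold changes of Bpifa1, 0.735 (standard error 0.96, edgeR adjusted p = 0.825), and Bpifb1, 0.39 (standard error 0.85, edgeR adjusted p = 0.900), were below their standard errors. Without TTI-101 mouse 2 they turned to -1.01 for each gene (edgeR unadjusted p = 0.197 and 0.163). Of 15 other genes of the BPI fold family, 4 could be tested. The lipid transfer protein gene Pltp had a log2 fold change of 0.86 (unadjusted p = 0.0361, adjusted p = 0.657 from edgeR), and the others did not pass, with 0.45 for Bpifb5, -0.32 for Lbp and -0.94 for Bpifa2.

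Across the 8 mice the genes varied in 2 sets. These were seen in the values and so have no test as sets, and all points share the same libraries. In 28 pairs of genes compared by log2 CPM, the 6 pairs within Scgb1a1, Scgb3a2, Cyp2f2 and Cbr2 had Pearson's r of 0.88 to 0.96. Each r was also taken without the 2 mice farthest from the median of 1 gene of the pair. That gene was the one named first in the opening list, so the mice left out differ between pairs. For Scgb1a1 and Scgb3a2, r was 0.96 and Spearman's rho 0.98 (exact permutation tests, adjusted p = 0.00503 and 0.0037), and r was 0.98 without Control mice 3 and 4. For Cyp2f2 and Cbr2, r was 0.94 and rho 0.88 (exact permutation tests, adjusted p = 0.0092 and 0.0225), and r was 0.95 without Control mouse 1 and TTI-101 mouse 1.

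The second set held Scgb3a1, Bpifa1 and Bpifb1, whose 3 pairs had r of 0.94 to 0.99. For Bpifa1 and Bpifb1, r was 0.99 and rho 0.98 (exact permutation tests, adjusted p = 0.00116 and 0.0037), and r was 0.96 without Control mouse 4 and TTI-101 mouse 2, the mice at the extremes. After each group's mean was subtracted, r for this pair was still 0.99. TTI-101 mouse 2, the highest for this set, also had the highest goblet cell markers and more cartilage counts than all but TTI-101 mouse 1, and the part of either in these levels was not tested. Between the sets, Scgb1a1 and Bpifa1 had r of 0.01 and rho of 0.17 (exact permutation tests, adjusted p = 0.979 and 0.788). Against each gene's mean log2 CPM over the 8 mice, Control mouse 4 was high for Scgb1a1 (0.89) and low for Bpifa1 (-2.98). Control mouse 3 was high for both (0.72 and 0.96). Without Control mice 3 and 4, r was 0.91. Scgb1a1 with Scgb3a1 likewise went from 0.29 to 0.89, and with Bpifb1 from 0.07 to 0.95.

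**Figure D2:**
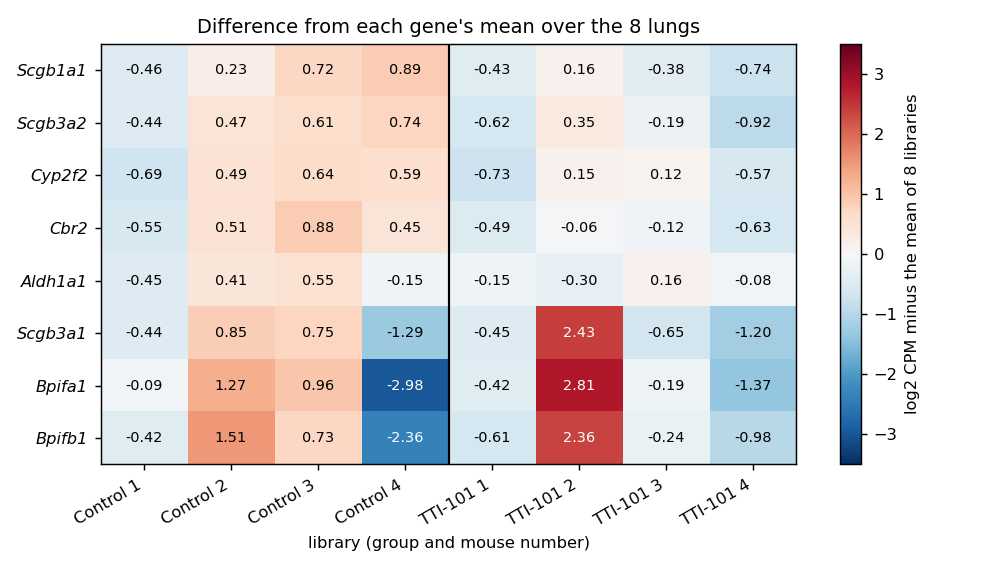
Log2 CPM of each club cell gene in each lung minus the gene's mean over the 8 lungs, with red above and blue below the mean and the value printed in each cell. Control mouse 4 is high for Scgb1a1 (0.89) and low for Bpifa1 (-2.98), and TTI-101 mouse 2 is high for Scgb3a1 (2.43), Bpifa1 (2.81) and Bpifb1 (2.36).

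Aldh1a1 belonged to neither set. Its highest r was 0.74, with Cbr2 (exact permutation test, adjusted p = 0.112; rho 0.60, adjusted p = 0.337), and r fell to 0.19 without Control mice 2 and 3. Among the other 17137 genes tested, those most like Scgb1a1 over the 8 libraries were Pon2 (r = 0.988), Fkbp4 (0.988), Tpt1 (0.986), Hdgf (0.985) and 1810037I17Rik (0.985). In that order Scgb3a2 ranked 89, Cbr2 489, Cyp2f2 737, Aldh1a1 5080 and Bpifa1 8086.

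Set against Scgb1a1 within each library, which removes library scaling, no ratio passed the test between groups. The log2 ratio of Scgb3a2 to Scgb1a1 averaged -4.06 ± 0.17 (SD) in the 4 Control and -4.06 ± 0.21 (SD) in the 4 TTI-101 lungs (two-sided exact permutation test, p = 1.0). The ratio of Cbr2 differed by 0.05 (exact permutation p = 0.886) and that of Cyp2f2 by 0.18 (exact permutation p = 0.457). Aldh1a1 had the lowest p of the 7 ratios, with a log2 ratio higher by 0.51 in TTI-101 lungs (exact permutation p = 0.229, adjusted p = 0.8). This became 0.25 without Control mouse 4 and 0.75 without TTI-101 mouse 2 (exact permutation p = 0.429 and 0.0571, unadjusted). For Scgb3a1, Bpifa1 and Bpifb1 the ratios differed by 0.76, 1.11 and 0.97, with SDs within groups of 1.16 to 2.24 (exact permutation p = 0.514 to 0.571). Without Control mouse 4 these differences fell to 0.16, 0.007 and 0.04, and without TTI-101 mouse 2 to 0.13, 0.41 and 0.39.

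Pan-epithelial and ciliated cell markers had lower medians alongside the first set, where 8469 of the 17138 genes tested were lower and 3.58% were lower past the unadjusted threshold. Of the 7 pan-epithelial markers, 6 were lower in TTI-101 lungs, and 4 of them, Epcam, Cdh1, Krt8 and Krt18, passed that threshold, with a median log2 fold change of -0.66. Ciliated cell markers were lower for 12 of 12 genes, 4 of which passed, Dnah5 (-1.21), Mcidas (-1.18), Deup1 (-1.10) and Sntn (-0.84), and their median was -0.65. At the adjusted threshold 0 genes of either list passed, as for every list described here (edgeR). In summed level the pan-epithelial list was at 1907 to 3301 CPM in Control and 1651 to 2101 CPM in TTI-101 lungs. The ciliated list was at 610 to 1493 and 575 to 1332 CPM. Control mouse 4 was the highest of all mice in both sums and for each marker named above. The other Control mice summed to 1907 to 2244 CPM for the pan-epithelial and 610 to 1154 CPM for the ciliated list. Neither list was read from the fit without Control mouse 4. Relative to the mean log2 CPM of the pan-epithelial markers of the same library, Scgb1a1 was lower by 0.21 in TTI-101 lungs, with 6.28 ± 0.38 (SD, n = 4) against 6.07 ± 0.13 (SD, n = 4; two-sided exact permutation test, p = 0.371). Relative to the ciliated markers the difference was 0.04, with 9.14 ± 0.17 (SD, n = 4) against 9.18 ± 0.32 (SD, n = 4; two-sided exact permutation test, p = 0.857). Cbr2 differed by -0.16 (exact permutation p = 0.6) and 0.09 (exact permutation p = 0.771) on these scales. The part of these lists in the levels of the club cell genes was not tested.

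**Figure D3:**
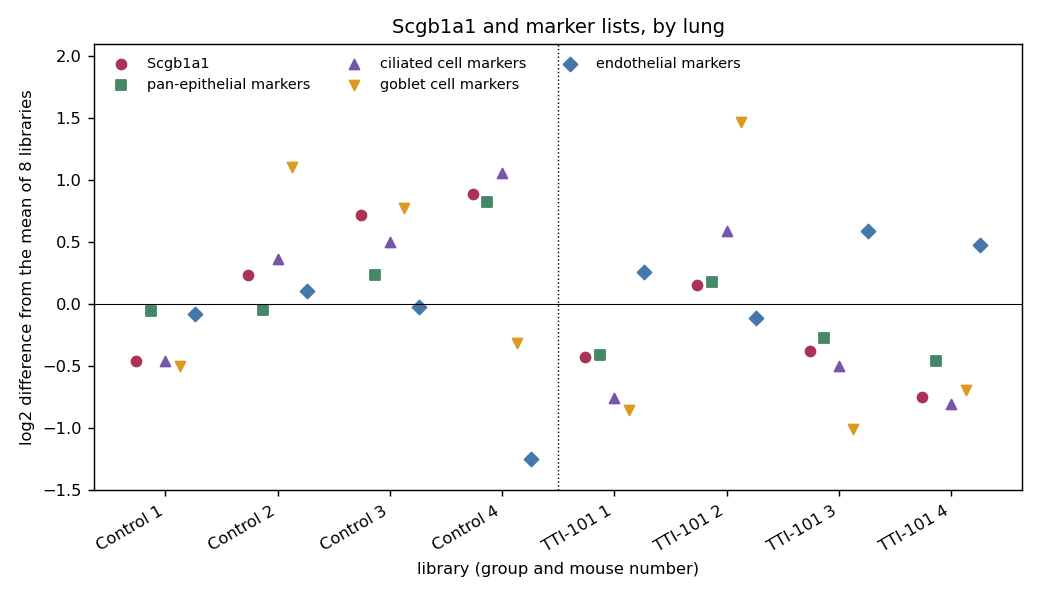
Log2 CPM of Scgb1a1 and mean log2 CPM of 4 marker lists in each lung, each minus its mean over the 8 lungs, with symbols set side by side within a lung. Scgb1a1 lies close to the ciliated and pan-epithelial markers in most lungs, and endothelial markers are lowest in Control mouse 4, where Scgb1a1 is highest.

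Endothelial markers were higher in TTI-101 lungs for 6 of 6 genes with 0 past the unadjusted threshold (median log2 fold change 0.54), and they were lowest in Control mouse 4, at 1015 CPM in sum against 2306 to 3873 CPM in the other mice. Leukocyte markers were higher for 6 of 7 genes, and 1 passed, where 6.61% of all genes tested passed in either direction. That 1 was the B cell gene Cd79a (log2 fold change 1.32, unadjusted p = 0.0015, adjusted p = 0.657 from edgeR). Alveolar type 2 markers were lower for 7 of 8 genes (median -0.40) and alveolar type 1 markers higher for 5 of 6 (median 0.40), with 0 genes past the unadjusted threshold in each. Goblet cell markers were lower for 6 of 7 genes, of which Spdef passed (-1.04), and in summed level they spanned 89.2 to 328 CPM in Control and 73.6 to 382 CPM in TTI-101 lungs, with TTI-101 mouse 2 the highest. The 5 tested basal cell markers summed to 3.10 to 25.8 CPM and neuroendocrine markers to 11.2 to 30.7 CPM, with 0 genes past the threshold in each. Of 10 cartilage markers 2 could be tested, of which Comp was higher (log2 fold change 1.85, unadjusted p = 0.00489) at no more than 1.02 CPM in any library.

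Of 18 further club cell genes, 17 could be tested, and 13 were lower and 4 higher in TTI-101 lungs, with a median log2 fold change of -0.30. The 2 past the unadjusted threshold were both lower. Of all 17138 genes tested, 8469 were lower, and 3.58% were lower past that threshold. Cckar, a cholecystokinin receptor gene, was at 97.4, 142, 202 and 278 CPM in Control and 82.8, 129, 92.0 and 85.6 CPM in TTI-101 mice (log2 fold change -0.89, standard error 0.29, edgeR adjusted p = 0.657). Gabrp, a GABA receptor subunit gene, was at 80.8, 132, 152 and 259 CPM in Control and 70.4, 104, 90.6 and 80.2 CPM in TTI-101 mice (log2 fold change -0.85, standard error 0.30, edgeR adjusted p = 0.657). In both genes Control mouse 4 was the highest and the groups overlapped. The third by p was the haptoglobin gene Hp, with a log2 fold change of -0.71.

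Among 20 regulators of the airway secretory fate, 15 were lower and 5 higher, and 4 passed the unadjusted threshold, which 6.61% of all genes passed. Notch signaling directs airway progenitors to the secretory fate, and its genes differed in direction. The receptor gene Notch3 was at 109, 101, 88.3 and 71.8 CPM in Control and 115, 113, 183 and 156 CPM in TTI-101 mice (log2 fold change 0.62 ± 0.20, standard error, with unadjusted p = 0.00963 and adjusted p = 0.657 from edgeR). Every TTI-101 mouse lay above every Control mouse, where groups failed to overlap in 2.96% of all genes tested. Which cells of the whole lung gave the Notch3 RNA was not tested. The ligand gene Jag1 was at 53.4, 85.5, 85.8 and 123 CPM in Control and 50.9, 58.8, 36.5 and 62.2 CPM in TTI-101 mice (log2 fold change -0.74, standard error 0.25; unadjusted p = 0.0135, adjusted p = 0.657 from edgeR). The airway progenitor factor Sox2 (-0.94, standard error 0.37) and the epithelial factor Grhl2 (-0.69, standard error 0.28) were also lower at the unadjusted threshold. Among factors of the searched motifs, Nkx2-1 (log2 fold change -0.25), Foxa1 (-0.38), Foxa2 (-0.35), Foxa3 (-1.19), Cebpa (-0.48), Cebpb (-0.68) and Cebpd (-0.09) did not pass it, and neither did Stat3 (-0.08), which encodes the target of TTI-101.

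**Figure D4:**
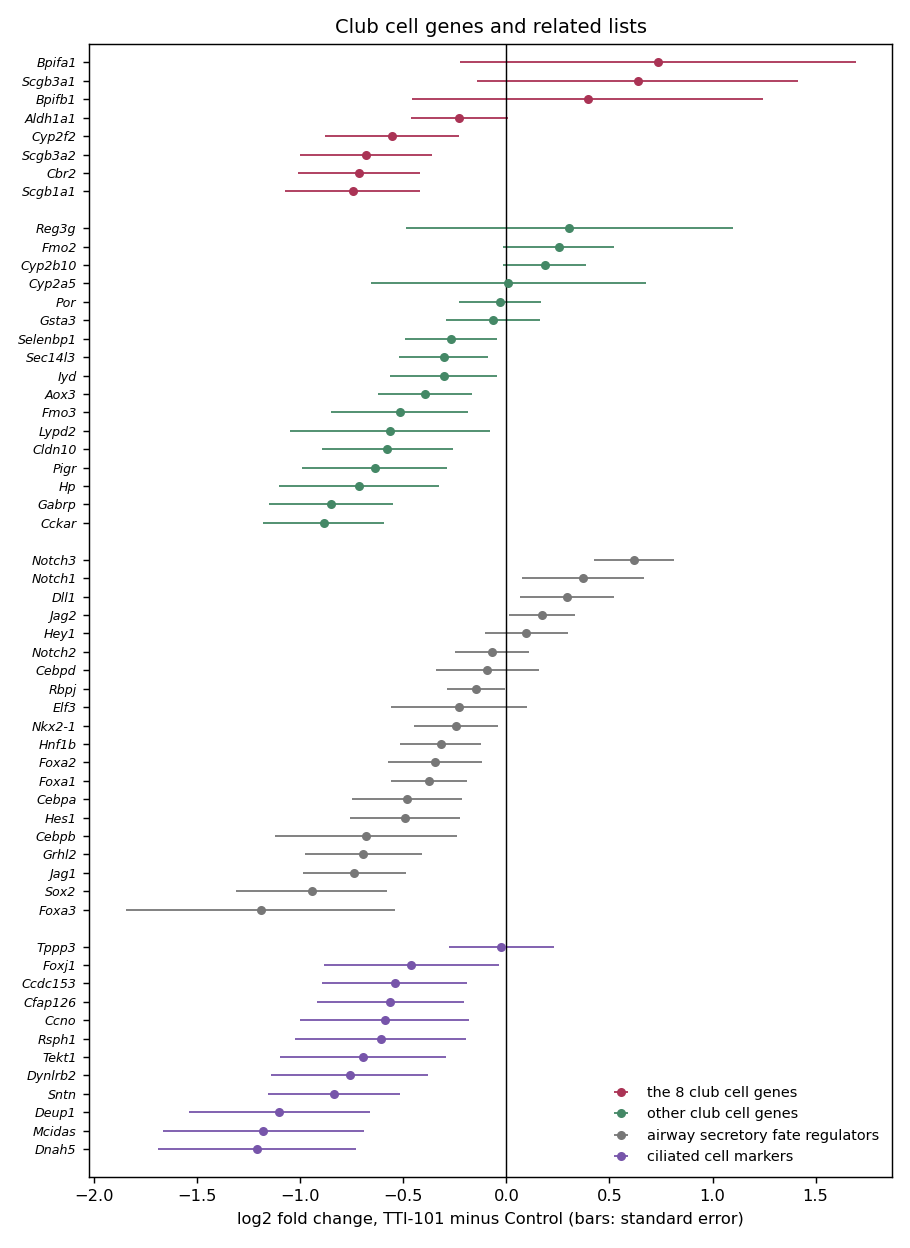
Log2 fold change of TTI-101 over Control from edgeR for the 8 club cell genes, further club cell genes, regulators of the airway secretory fate and ciliated cell markers, with bars of 1 standard error. Scgb1a1 (-0.75), Cbr2 (-0.71), Scgb3a2 (-0.68) and Cyp2f2 (-0.55) lie below 0, and Aldh1a1, Bpifa1, Scgb3a1 and Bpifb1 have bars that cross it.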

How the data were processed

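Poly(A) RNA of whole lungs was prepared with a stranded kit and sequenced by a provider. The authors deposited whole-number counts per Ensembl gene with no normalization. STAR, DESeq2 and mm10 appear in the submitters' processing notes, and the counting tool is not given in the sources used here. Of the 8 genes, 7 have the same coordinates in GENCODE M21. Beyond library names of a letter and a number, whose meaning is not given, nothing says more of the replicates than 1 library per mouse.

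Tests on the counts used edgeR 4.0.16 under R 4.3.3 (filterByExpr with a minimum count of 10, TMM, robust quasi-likelihood F-test, Benjamini-Hochberg over the genes tested, no covariate). DESeq2 1.42.0 and limma 3.58.1 served as alternatives. Log2 CPM used a prior count of 2, and CPM per kb the gene length in the table. Single values were compared by two-sided exact permutation tests. Alternatives were other scalings, filters and tools, a replicate block, and mice left out. The code was tested on simulated data. The lowest count of the 8 genes was 347. Named genes were the 8, tested relatives by family symbol, up to 3 tested genes with the smallest p of each list, and the 5 most like Scgb1a1. A few others of a list were named after their values were seen. The members and lists were chosen with earlier results of these data known. Levels relative to marker lists were added after seeing the data.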

Additional observations from a re-analysis of the deposited data

Results flagged for a closer look

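Of 56 groups of 4 mice examined, 8 had a mouse whose gap to the nearest of the others, as a share of the group's range, was above Dixon's critical value for 4 samples, where chance gives about 2.8. Control mouse 1 was low for Cyp2f2 (share 0.890, log2 CPM 10.7 against at most 12.1 in the other Control mice) and low for the neuroendocrine markers (0.835). Control mouse 4 was low for the alveolar type 1 markers (0.933), the endothelial markers (0.865) and the log2 ratio of Bpifa1 to Scgb1a1 (0.839, a ratio of -8.87 against up to -3.97). TTI-101 mouse 2 was high for the goblet cell markers (0.872), for the log2 ratio of Scgb3a1 to Scgb1a1 (0.841, a ratio of -3.61 against at most -5.91) and for that of Bpifb1 to Scgb1a1 (0.845, a ratio of -4.99 against at most -7.05).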

How the results depend on the processing

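Other scalings, filters and tools kept the direction of the 8 genes, but limma-voom moved the log2 fold change of Scgb3a1 to 0.07 and of Bpifa1 to 0.45, and the call of Scgb3a2 depended on the tool and the filter. Without TTI-101 mouse 2, Scgb3a1, Bpifa1 and Bpifb1 changed direction. Leaving out any other single mouse kept the direction of all 8 genes. DESeq2 called 4 genes at an adjusted p of 0.05. Leaving out each mouse in turn, genes called ranged from 0 to 1 and members past an unadjusted p of 0.05 from 0 to 4. The share of all genes past that unadjusted p was not counted for these fits. The members' median log2 fold change ranged from -0.93 to -0.26, the lowest being without TTI-101 mouse 2. The log2 fold change of single genes went from -0.95 to -0.55 for Scgb1a1, -0.93 to -0.51 for Cbr2, -0.95 to -0.52 for Scgb3a2, -0.78 to -0.41 for Cyp2f2, -0.38 to -0.07 for Aldh1a1, -0.93 to 0.96 for Scgb3a1, -1.01 to 1.17 for Bpifa1 and -1.01 to 1.04 for Bpifb1. Scgb1a1 missed the unadjusted threshold without Control mouse 2, 3 or 4 or TTI-101 mouse 1, 3 or 4, and Cbr2 without Control mouse 2 or 3 or TTI-101 mouse 1 or 4. Log2 ratios to Scgb1a1 went from -0.0599 to 0.0814 for Scgb3a2 and from -0.0894 to 0.149 for Cbr2, and those of Scgb3a1, Bpifa1 and Bpifb1 to as low as 0.13, 0.007 and 0.04. The cause was not tested.

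A fit without both Control mouse 4 and TTI-101 mouse 2 was run after the values were seen, with the mice picked for how they lay, so nothing is drawn from it. There 6 of 8 members passed the unadjusted threshold, and the share of all genes that passed it was not counted. At the adjusted threshold 0 genes passed, and the direction turned for Scgb3a1 (-1.24), Bpifa1 (-1.41) and Bpifb1 (-1.39).

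With a block for the replicate number, 0 members passed the unadjusted threshold (log2 fold change -0.69 for Scgb1a1, -0.65 for Cbr2, 0.06 for Scgb3a1 and 0.42 for Bpifa1). For this fit too, the share of all genes past that threshold was not counted. The deviations of same-numbered mice correlated at 0.39, 0.08, 0.16 and 0.07, all positive, and not every mouse correlated best with its own number. Whether the numbers pair the mice was not tested.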
